A study of Mus musculus with 16 samples.

Results

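Long non-coding RNAs (lncRNAs) are transcripts that are processed much like mRNAs but are not known to be translated. The lncRNA genes described here were all rows of the deposited gene table that carried the lncRNA biotype, lay outside chromosomes X and Y and had a mean of at least 5 CPM, the count scaled to a common library total, over all 16 libraries. This gave 199 genes, out of 9214 autosomal lncRNA genes and 55414 genes of any kind in the table. They were chosen by their mean CPM over all libraries, so their levels are given as a description. No test between groups entered the rule, but the mean includes every group. A gene near the threshold can thus have reached it only through the groups where it was high, for example *Gm28513*, *Gm36279* and *Gm49774*.

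Mouse lung endothelial cells (MLECs) were taken from Rosa26-CreERT2;Eng fl/fl;Immorto mice on a C57BL/6 background with CD31 and then ICAM2 beads, so that every group carried the floxed *Eng* alleles, the inducible Cre and the Immorto transgene. *Eng* encodes endoglin, an endothelial co-receptor of the growth factors BMP9 and BMP10. Cells of 4 isolations were treated with vehicle (Ctrl) or with 4-OH-tamoxifen to delete *Eng* (KO), serum-starved, and then given PBS or ligand at 0.2 ng/ml for 90 min. The ligand of Ctrl cells was BMP9 bound to the monomeric endoglin ectodomain (sENG(M):BMP9), and that of KO cells was BMP9 with its prodomain (pro:BMP9). The groups, each of 4 libraries, are named KO pro:BMP9, Ctrl sENG(M):BMP9, KO PBS and Ctrl PBS. The form of the ligand and tamoxifen both coincide with the genotype and cannot be told apart from it.

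BMP9 binds its type I receptor ALK1 on endothelial cells, SMAD1, SMAD5 and SMAD9 are phosphorylated, and with SMAD4 they enter the nucleus and change the transcription of nearby genes such as *Id1*, *Smad6* and *Smad7*. lncRNA genes commonly lie next to protein-coding genes or on their opposite strand, and several serve as precursors of microRNAs or of small nucleolar RNAs. The libraries were made from poly(A)-selected RNA with a directional kit. Library totals were 14869115 to 17242117 counts, and 0.451 to 0.596% of the counts of a library fell on the 199 lncRNA genes. *Eng* itself was at 375 to 776 CPM in the 8 Ctrl libraries and at 40.1 to 130 CPM in the 8 KO libraries, with no overlap. The 8 endothelial markers summed to between 3238 and 6960 CPM in every library. Fibroblast markers summed to between 68.6 and 637 CPM and mural markers to between 34.9 and 262 CPM, whereas epithelial markers did not exceed 0.698 CPM in sum and *Sftpc* was at 0.

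Most of the lncRNA genes were close to the threshold. Of the 199, 106 had a mean of 5 to 10 CPM, 80 had 10 to 50 CPM, 6 had 50 to 100 CPM and 7 had more, with a median of 9.70 CPM. *AW112010* and *Gm12758*, both at 5.11 CPM, were just inside the threshold, and *8030451A03Rik* at 4.98 CPM and *K230015D01Rik* at 4.96 CPM were just outside it. Every one of the 199 had at least 10 counts in every library and was tested. Descriptive symbols are rare in this class, and 146 of the genes carry only a provisional Gm or Rik symbol.

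The genes with the highest mean levels were *Malat1*, a nuclear speckle RNA, at 883 CPM, *Neat1*, the scaffold of paraspeckles, at 425 CPM, *Gm42047* at 369 CPM, *Norad*, a cytoplasmic RNA that binds Pumilio proteins, at 187 CPM and *AI506816* at 156 CPM. Per kilobase of the deposited exonic length, *Malat1* was also the highest, at 126 CPM per kb, while *Norad* was at 38.0 and *Neat1* at 20.5 CPM per kb. The isolations differed more in these transcripts than in protein-coding genes. The fold between the highest and the lowest isolation mean had a median of 1.41 over the lncRNA genes and of 1.27 over protein-coding genes at the same threshold, and it was 2 or more for 30 lncRNA genes. Both sets share only the lower limit of 5 CPM and were not matched on level, and the difference was not tested. *AW112010* (11.2-fold), *Gm6093* (10.3-fold), *Prss23os* (8.10-fold) and *Gm28513* (7.01-fold) differed most. *H19*, an imprinted RNA, had isolation means of 118, 130, 75.8 and 34.8 CPM. For this reason every comparison below is made within isolations.

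Ligand changed a small set of the lncRNAs within 90 min. In Ctrl cells, 21 of 199 lncRNA genes passed at an adjusted p of less than 0.05, 8 of them higher and 13 lower with sENG(M):BMP9. The p-values are from edgeR, fitted with isolations as blocks and adjusted over all 15693 tested genes. That is a share of 10.6%, against 9.69% of all tested genes (5.86% higher, 3.83% lower) and 12.97% of autosomal protein-coding genes at 5 CPM or more. In KO cells, 10 passed with pro:BMP9, 8 higher and 2 lower, a share of 5.03% against 5.59% of all tested genes (3.68% higher, 1.92% lower) and 7.7% of those protein-coding genes. Of these, 8 genes passed in both, all in the same direction, which is 38.1% of those of the Ctrl cells and 80.0% of those of the KO cells. Over all tested genes the same shares were 51.7 and 89.6%. When both responses were averaged, 34 passed, 11 higher and 23 lower, or 17.1% against 13.1% of all tested genes and 17.03% of protein-coding genes at 5 CPM or more. The shares in Ctrl and in KO cells were near those of all tested genes and below those of protein-coding genes, and no difference of shares or of the split by direction was tested. Higher responses were 5.53% of lncRNA genes against 7.46% of all tested genes, and lower ones 11.6% against 5.65%. The median average response was -0.01 on the log2 scale over the lncRNA genes and 0.00 over all tested genes.

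**Figure D1:**
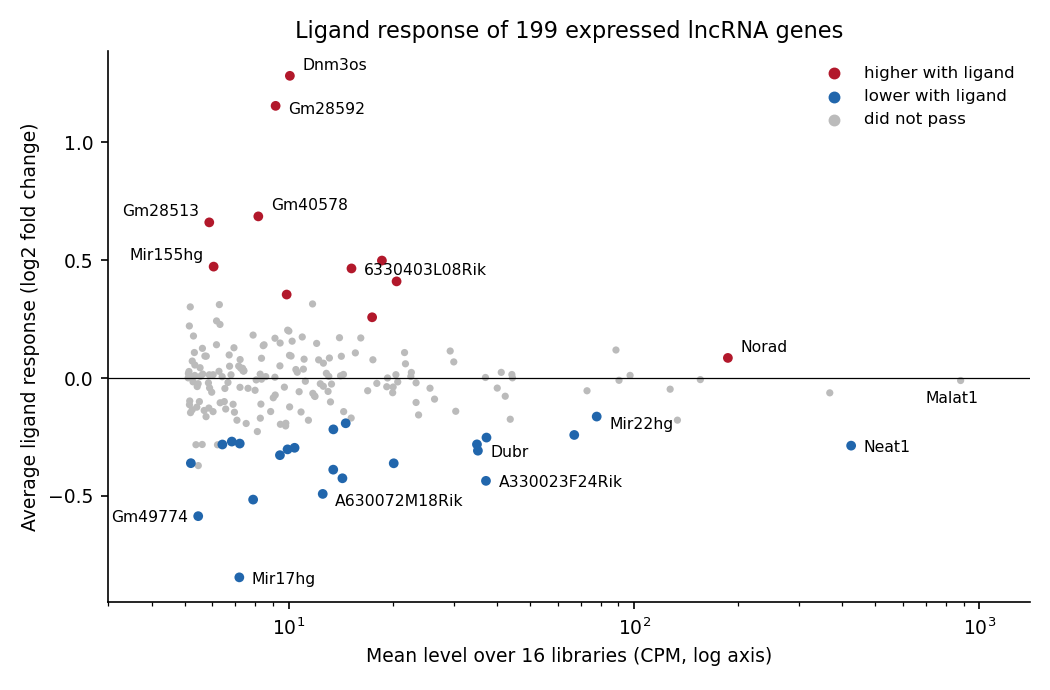
Each point is 1 of the 199 lncRNA genes, with its mean level over 16 libraries in CPM on a log x axis and its average ligand response (log2 fold change, mean of the Ctrl and KO responses) on the y axis. Red and blue mark the 11 higher and 23 lower genes with adjusted p under 0.05, and the largest responses, from *Dnm3os* at 1.28 to *Mir17hg* at -0.85, lie toward the left, at mean levels of 10.1 and 7.18 CPM.

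The counts depended on the block and on single isolations. Without the isolation block 4 genes passed in Ctrl cells, 1 in KO cells and 5 on average. Leaving out 1 isolation at a time gave 15 to 23 genes in Ctrl cells, 21 to 30 on average (21 without isolation 2) and 3 to 6 in KO cells (5 without isolation 1, 3 without isolation 2, 6 without isolation 3 and 5 without isolation 4).

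*Dnm3os* rose most. It is the precursor of miR-199a and miR-214, runs antisense within the gene body of *Dnm3* and lies at chr1:162045192-162053119 on the plus strand (GRCm39). Its level was 7.41, 8.47, 6.96 and 3.56 CPM in Ctrl PBS and 19.8, 28.4, 13.7 and 7.16 CPM in Ctrl sENG(M):BMP9, isolations 1 to 4 in that order. In KO cells it was 6.15, 5.49, 4.09 and 3.77 CPM in PBS and 17.5, 15.9, 10.3 and 4.51 CPM with pro:BMP9. It was thus higher with ligand in 4 of 4 isolations of each genotype, and the smallest rise was in KO cells of isolation 4, whose treated level overlapped the PBS range of the other isolations.

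The log2 fold change of *Dnm3os* was 1.33 ± 0.16 (SE) in Ctrl cells (adjusted p = 1.30e-05), and it was 1.24 ± 0.18 with pro:BMP9 in KO cells (adjusted p = 0.000133). Both passed without any single isolation, and without the block the average response still passed (adjusted p = 0.0318) while those of Ctrl (0.256) and KO cells (0.556) did not. *Dnm3*, a dynamin gene on the other strand, did not pass (average -0.06 ± 0.15, adjusted p = 0.899), and *Dnm3os* had 115 to 757% as many counts as *Dnm3*. Its isolation means were 12.7, 14.6, 8.76 and 4.75 CPM, and the sums of 5 fibroblast markers were 527, 72.7, 592 and 436 CPM in the same isolations. Of these markers *Pdgfra* was higher with ligand on average (0.25, adjusted p = 0.0178), and none of 6 mural markers passed. The part of such cells in the response of *Dnm3os* was not tested. In a bulk library, fewer cells of a type and less RNA per cell cannot be told apart.

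The 4 mature microRNAs that *Dnm3os* carries are shown because the host is the only one of its kind that more than doubled. The *Mir199a-2* hairpin lies at chr1:162045383-162045492 and that of *Mir214* at chr1:162050937-162051046, both on the plus strand. Capitals mark the seed, bases 2 to 8, with which a microRNA pairs to its targets. The sequences are those of RefSeq, and the 4 seeds differ from each other.
mmu-miR-199a-5p: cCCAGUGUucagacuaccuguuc
mmu-miR-199a-3p: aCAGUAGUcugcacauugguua
mmu-miR-214-5p: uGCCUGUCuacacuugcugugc
mmu-miR-214-3p: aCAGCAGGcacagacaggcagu
The hairpins had 0 counts in all libraries, and the mature microRNAs were not measured.

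The 300 bases from 250 before to 50 after the start of *Dnm3os* are printed from GRCm39, chr1:162044942-162045241, plus strand, since this gene had the largest induction. Capitals mark CAGAC on either strand (GTCTG on the other), the short SMAD box.
Dnm3os start: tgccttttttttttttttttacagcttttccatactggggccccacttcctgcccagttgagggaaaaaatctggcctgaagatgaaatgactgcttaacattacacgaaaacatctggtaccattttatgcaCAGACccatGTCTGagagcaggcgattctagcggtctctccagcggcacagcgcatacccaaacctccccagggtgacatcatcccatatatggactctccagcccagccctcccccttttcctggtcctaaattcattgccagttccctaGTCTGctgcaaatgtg
It holds 3 CAGAC matches and none of GGCGCC, a GC-rich motif known from BMP-responsive elements and the same when read on either strand. Over all 15170 autosomal windows of tested genes, 18.3% held GGCGCC and 47.8% held CAGAC. Of the 199 lncRNA windows, 10.6% held GGCGCC and 42.2% CAGAC, and of the 11 that rose 1 held GGCGCC and 4 held CAGAC. Among 99 genes of other biotypes that rose at least 2-fold with ligand, 35.4% held GGCGCC. Their windows were richer in G and C, with a median of 63.7% against 55.0% for the lncRNAs and 58.3% for all.

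*Mir17hg*, the host of the miR-17-92 cluster at chr14:115280311-115284159 on the plus strand, fell most. Its level was 11.9, 11.8, 7.74 and 7.67 CPM in Ctrl PBS and 4.52, 5.89, 3.14 and 4.28 CPM with sENG(M):BMP9, so that no treated Ctrl library reached the lowest untreated one. In KO cells it was 10.6, 9.68, 6.79 and 7.73 CPM in PBS and 7.94, 4.53, 5.13 and 5.95 CPM with pro:BMP9, and here the ranges overlapped. The log2 fold change was -1.13 ± 0.15 in Ctrl cells (adjusted p = 2.64e-05) against -0.56 ± 0.15 in KO cells (adjusted p = 0.0259), lower in 4 of 4 isolations of each. The KO response did not pass when any of the 4 isolations was left out. The difference between both responses, 0.57 ± 0.21, had an unadjusted p of 0.0137 and did not pass (adjusted p = 1.00).

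The 6 hairpins of the cluster span chr14:115281103-115281938, and 6 of its mature products are shown with their seeds in capitals because this host fell most. Of these, miR-17-5p and miR-20a-5p have one seed in common, miR-19a-3p and miR-19b-3p have another, and miR-18a-5p and miR-92a-3p share theirs with none of the others printed.
mmu-miR-17-5p: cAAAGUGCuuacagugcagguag
mmu-miR-20a-5p: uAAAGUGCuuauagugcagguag
mmu-miR-18a-5p: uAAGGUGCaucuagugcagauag
mmu-miR-19a-3p: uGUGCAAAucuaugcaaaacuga
mmu-miR-19b-3p: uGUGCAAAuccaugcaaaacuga
mmu-miR-92a-3p: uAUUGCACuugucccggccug
No hairpin of the cluster had a count, so again only the host transcript was measured.

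In all, 17 of the lncRNA genes contain 35 annotated microRNA genes on their own strand, and 7 of these hosts passed on average, 3 higher and 4 lower (median of the 17 hosts -0.07), beside 17.1% of all 199 lncRNA genes and 13.1% of all tested genes. The difference was not tested. Beside *Dnm3os*, *Mir155hg* and *Gm47079*, which contains *Mir1900*, were higher. *Mir155hg*, the host of the immune-regulated miR-155, was at 5.39, 5.98, 4.26 and 3.50 CPM in Ctrl PBS and at 8.67, 13.3, 6.05 and 3.35 CPM with sENG(M):BMP9. In KO cells it was at 7.68, 6.74, 3.61 and 2.95 CPM in PBS and at 9.73, 10.1, 3.83 and 3.01 CPM with pro:BMP9. The rise was in isolations 1 to 3 in Ctrl cells and isolation 4 was flat in both genotypes, and the response was 0.64 ± 0.18 in Ctrl cells (adjusted p = 0.0239) against 0.31 ± 0.18 in KO cells (adjusted p = 0.497). Its average response of 0.47 was no longer past the threshold without isolation 1 (adjusted p = 0.0569) or 2 (0.30, adjusted p = 0.277).

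*A330023F24Rik*, the host of miR-29b-2 and miR-29c, *Gm3764*, the host of miR-9-1, and *Mir22hg*, the host of miR-22, were lower on average. *A330023F24Rik* was at 22.4, 31.3, 40.9 and 72.7 CPM in Ctrl PBS and at 14.2, 25.1, 18.96 and 74.4 CPM with sENG(M):BMP9, and at 29.1, 29.6, 33.8 and 74.1 CPM in KO PBS and 22.6, 21.0, 26.4 and 53.3 CPM with pro:BMP9. Isolation 4 was far above the others in every group, and 7 of 8 pairs fell. The average log2 fold change was -0.44 ± 0.10 (adjusted p = 0.00685) for *A330023F24Rik*, -0.33 ± 0.08 (0.0105) for *Gm3764* and -0.16 ± 0.04 (0.00596) for *Mir22hg*. The call of *A330023F24Rik* was lost without isolation 3 (adjusted p = 0.0503), and that of *Gm3764* without isolation 2 (0.0599) or 3 (0.0730). The other hosts, among them *Mir100hg* at -0.18 (0.120) and *Dleu2* at -0.14 (0.273), did not pass. The main products of these hosts follow, with the seed in capitals, which miR-29b-3p and miR-29c-3p share.
mmu-miR-155-5p: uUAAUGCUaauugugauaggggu
mmu-miR-29b-3p: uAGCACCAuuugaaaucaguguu
mmu-miR-29c-3p: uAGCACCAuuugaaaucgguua
mmu-miR-9-5p: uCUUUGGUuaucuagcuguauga
mmu-miR-22-3p: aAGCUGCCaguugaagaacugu

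**Figure D2:**
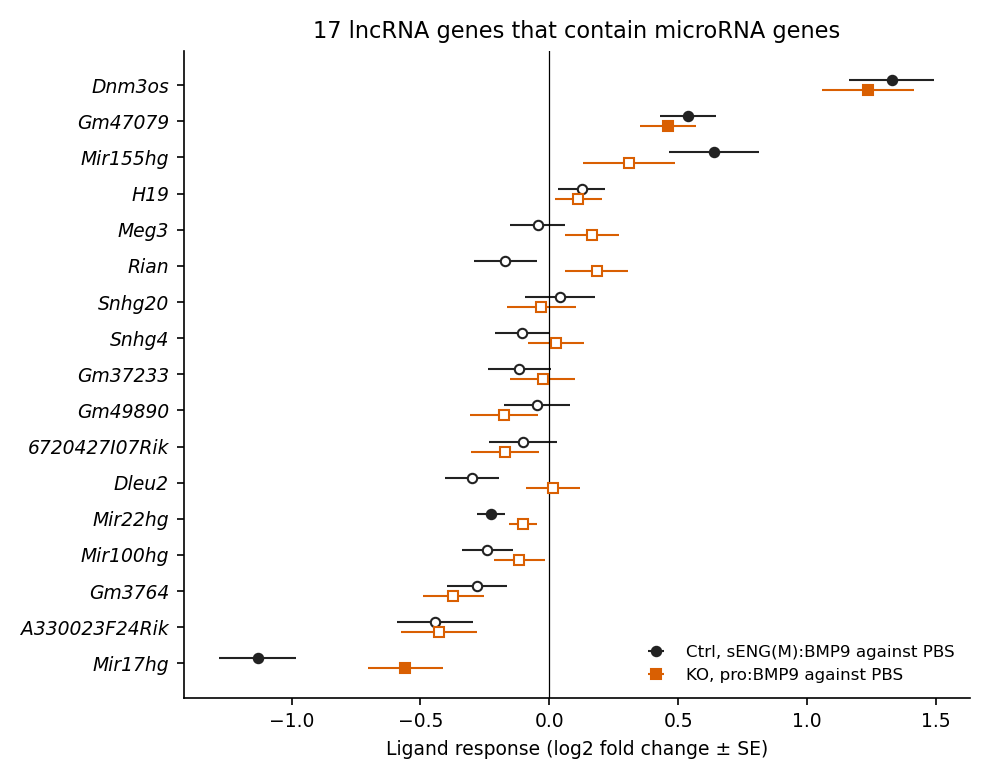
Ligand response (log2 fold change ± SE, x axis) of the 17 lncRNA genes that contain microRNA genes, in Ctrl cells (black circles) and KO cells (orange squares), filled where adjusted p was under 0.05. *Dnm3os* stands at the top with 1.33 and 1.24 and *Mir17hg* at the bottom with -1.13 and -0.56.

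**Figure D3:**
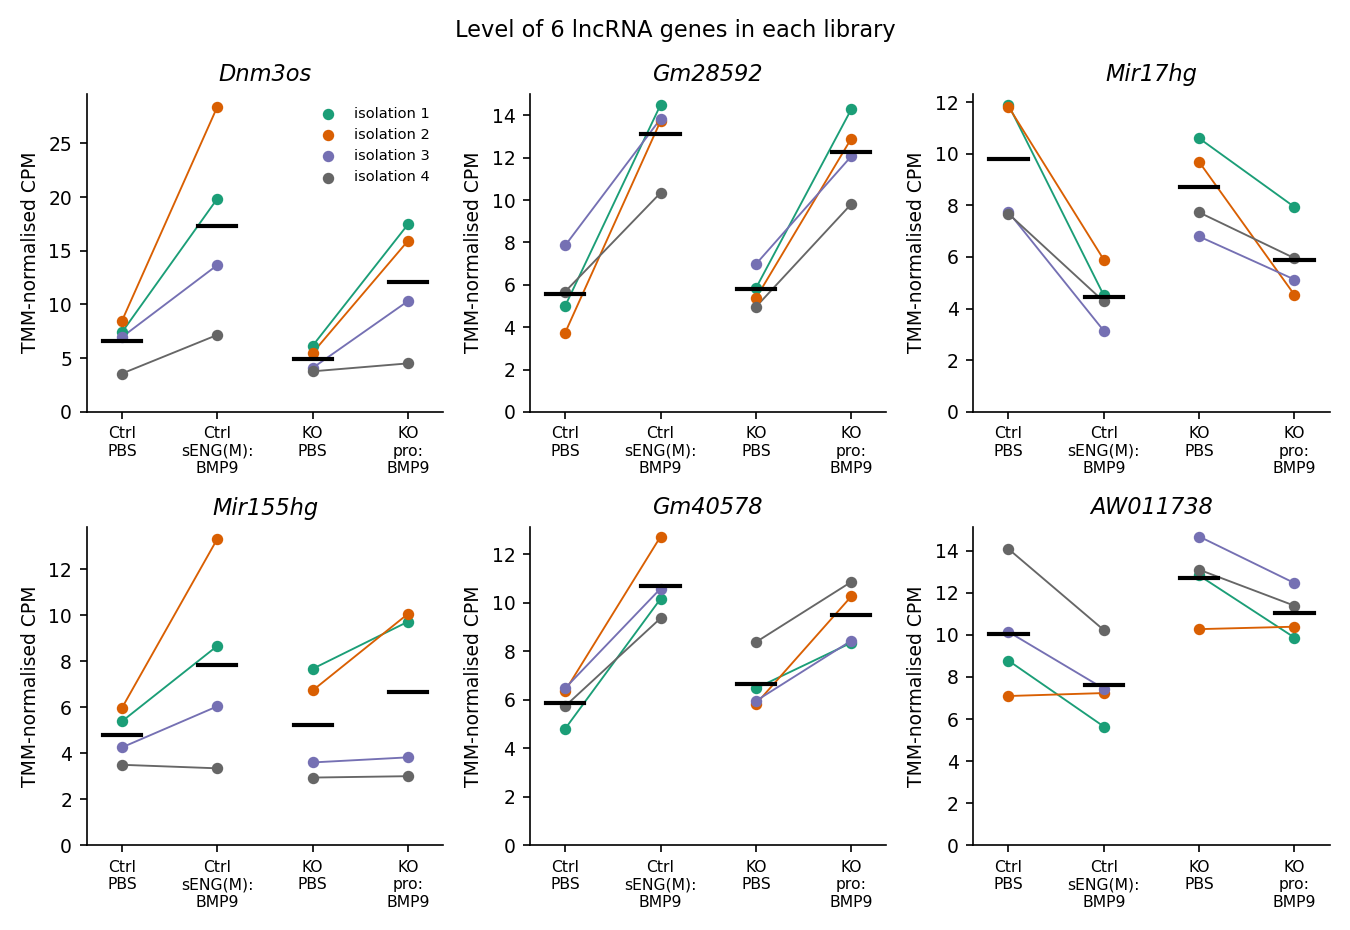
TMM-normalised CPM (y axis, from 0) of 6 lncRNA genes in each of the 16 libraries, with lines joining PBS and ligand of 1 isolation within a genotype and black bars at the group means. *Dnm3os* and *Gm28592* are higher with ligand in all 8 pairs, and *Mir17hg* is lower in all 8.

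Most of the lncRNA genes overlap a protein-coding gene on the opposite strand. By the deposited coordinates, 118 overlap only opposite-strand genes, 4 overlap genes on both strands and 9 only on their own strand, 14 start within 2 kb of a divergent protein-coding start, and 54 do neither. The share that passed on average was 13.6% (16 of 118, 8 higher and 8 lower) for the first class and 24.1% (13 of 54, 2 higher and 11 lower) for the last, against 17.1% of all 199, and this difference was not tested. A gene on the opposite strand was found for 9 of the 11 higher lncRNAs, 8 of the 23 lower ones and 122 of all 199. No difference between these shares was tested.

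The lncRNA and its opposite-strand gene tended to respond alike. Over the 122 pairs, the average responses had r = 0.63 and rho = 0.62, as a description across genes that share libraries and, in part, sequence. Of the 9 higher lncRNAs in such pairs, 7 had a partner that was also higher, and of the 8 lower ones 3 had a partner that was also lower. Over all 122 pairs, 20 partners were higher, 18 were lower and 84 did not pass, and no difference of shares was tested. In 1 pair, *Gm37305* and *Ccnl1*, both passed in opposite directions, and the partners of 6 did not pass. The lncRNA had a median of 5.28% of the counts of its partner (quartiles 2.24 and 17.3%), and less than 2% in 28 pairs, 6 of which held a lncRNA that passed. The library kit keeps strand, but the strand setting of the counting is not given in the sources used here, so reads of a lncRNA and of its antisense partner cannot be told apart. For 46 lncRNA genes the GENCODE model had the deposited exonic length, and 7 of these had at least 95% of their exonic bases inside opposite-strand exons and still had counts.

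**Figure D4:**
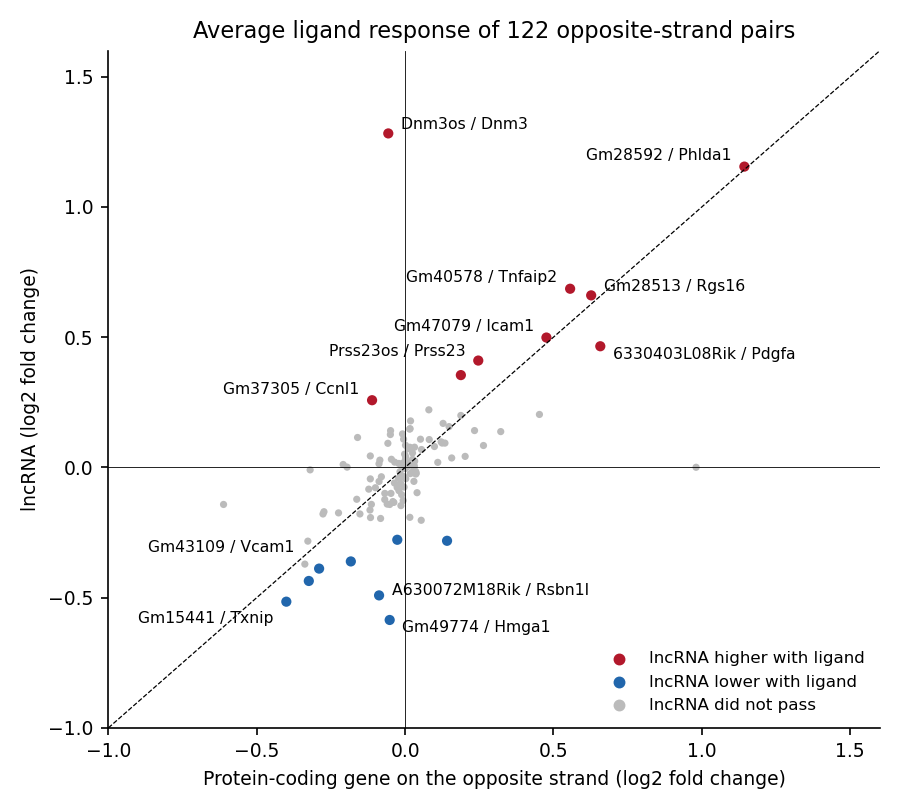
Average ligand response (log2 fold change) of 122 lncRNA genes (y axis) against that of the protein-coding gene on the opposite strand (x axis), with the dashed line marking equal responses. Red and blue mark lncRNAs that passed: *Gm28592* with *Phlda1* and *Gm28513* with *Rgs16* lie near the line, and *Dnm3os* lies far above it.

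*Gm28592*, at chr10:111342436-111343523 on the minus strand, rose as much as *Phlda1*, a gene for a pleckstrin homology-like domain protein, which lies on the plus strand. The lncRNA was at 5.004, 3.74, 7.86 and 5.68 CPM in Ctrl PBS and at 14.5, 13.7, 13.8 and 10.3 CPM with sENG(M):BMP9. In KO cells it was at 5.84, 5.36, 6.97 and 4.95 CPM in PBS and at 14.3, 12.9, 12.1 and 9.81 CPM with pro:BMP9, and no treated library overlapped the untreated ones in either genotype. The log2 fold changes were 1.22 ± 0.15 (adjusted p = 8.27e-06) and 1.09 ± 0.15 (adjusted p = 6.20e-05), and both passed under every alternative. *Phlda1* rose from 39.3 ± 9.4 to 84.2 ± 12.9 CPM (SD, n = 4) in Ctrl cells and from 37.5 ± 8.4 to 84.9 ± 10.8 CPM in KO cells (average log2 1.14 ± 0.09, edgeR adjusted p = 1.44e-08). Of the exonic bases of *Gm28592*, 98.1% lie inside exons of *Phlda1*, and it had between 12.7 and 19.1% of the counts of *Phlda1* in every library, so a rise of *Gm28592* and reads of *Phlda1* cannot be told apart.

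Further lncRNAs rose together with the gene on their opposite strand. *Gm40578* (opposite *Tnfaip2*, a TNF-inducible gene) was at 5.85 ± 0.77 CPM in Ctrl PBS and 10.7 ± 1.4 CPM with sENG(M):BMP9, and at 6.65 ± 1.2 and 9.47 ± 1.3 CPM in the KO groups (SD, n = 4 libraries each). The groups did not overlap in Ctrl cells, and in KO cells the highest PBS library, at 8.37 CPM in isolation 4, was above the lowest treated one, at 8.35 CPM. Its log2 fold change was 0.87 ± 0.13 in Ctrl cells (adjusted p = 0.000126) against 0.50 ± 0.13 in KO cells (adjusted p = 0.0253), the average of *Tnfaip2* was 0.56 ± 0.03, and the lncRNA had 0.688 to 1.07% of the counts of *Tnfaip2*. *Gm47079* (opposite *Icam1*, an adhesion molecule for leukocytes) rose by 0.54 ± 0.11 and 0.46 ± 0.11 beside an average of 0.48 ± 0.03 for *Icam1*, at 0.913 to 1.31% of its counts. *6330403L08Rik* (opposite *Pdgfa*, a growth factor) rose by 0.58 ± 0.10 and 0.35 ± 0.10 beside 0.66 ± 0.04, at 16.7 to 29.7% of the counts of *Pdgfa*. *Prss23os* (opposite *Prss23*, a serine protease gene) rose by 0.50 ± 0.09 and 0.32 ± 0.09 beside 0.25 ± 0.03. When 1 isolation at a time was left out, the KO responses passed in 1 of 4 cases for *Gm40578* and *6330403L08Rik*, in 2 of 4 for *Gm47079* and in 0 of 4 for *Prss23os*, and the Ctrl response of *Gm47079* was lost without isolation 2 (adjusted p = 0.0599).

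*Gm28513*, opposite *Rgs16*, a regulator of G protein signalling, passed in KO cells (0.76 ± 0.20, adjusted p = 0.0238) and not in Ctrl cells (0.56 ± 0.19, adjusted p = 0.0823), and the difference did not pass (0.20 ± 0.28, adjusted p = 1.00). Its levels ran from 1.06 to 15.04 CPM between isolations. *Gm16548*, opposite *Selp*, the gene of P-selectin, passed only on average (0.35 ± 0.09, adjusted p = 0.00740) beside 0.19 ± 0.03 for *Selp*, and was lost without isolation 2 (adjusted p = 0.0796). *Gm29233*, opposite *Thbs1*, the thrombospondin-1 gene, passed only in Ctrl cells (0.34 ± 0.09, adjusted p = 0.0230), with -0.03 ± 0.09 in KO cells, and had 0.504 to 0.737% of the counts of *Thbs1*. *Gm37305* was the exception in direction. It rose in KO cells (0.38 ± 0.09, adjusted p = 0.00773; 0.13 ± 0.08 in Ctrl cells) while *Ccnl1*, a cyclin gene on the opposite strand, fell on average by 0.11 on the log2 scale (adjusted p = 0.0219). The average call of *Gm37305* (0.26) was lost without isolation 1 (adjusted p = 0.104) or 2 (0.0599).

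Among the lower lncRNAs, *Gm15441*, *Gm43109* and *Gm36279* lie opposite genes that were also lower. *Gm15441* (opposite *Txnip*, which binds thioredoxin) was at 9.004 ± 2.9 CPM in Ctrl PBS and 5.81 ± 1.6 CPM with sENG(M):BMP9, and fell in 8 of 8 pairs (average -0.52 ± 0.11, adjusted p = 0.00275; *Txnip* -0.40 ± 0.03). *Gm43109* (opposite *Vcam1*, an adhesion molecule for leukocytes) went from 15.4 ± 4.5 to 11.1 ± 3.9 CPM and also fell in 8 of 8 pairs (-0.39 ± 0.08, adjusted p = 0.00294; *Vcam1* -0.29 ± 0.03). *Gm36279* (opposite *Zfp36l2*, an mRNA decay factor) averaged -0.36 ± 0.10 (adjusted p = 0.0158) beside -0.18 ± 0.03. The call of *Gm36279* was lost without isolation 2 (adjusted p = 0.0599) or 4 (0.0801). These 3 had 0.494 to 2.61% of the counts of their partners.

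Other lower lncRNAs lay opposite genes that did not pass. *A630072M18Rik*, inside exons of *Rsbn1l* for 95.05% of its bases, was at 18.4, 22.6, 9.24 and 10.8 CPM in Ctrl PBS and at 11.2, 15.2, 5.47 and 7.11 CPM with sENG(M):BMP9. Every Ctrl isolation fell, and the ranges overlapped because the isolations differ. The change was -0.65 ± 0.10 in Ctrl cells (adjusted p = 0.000105) against -0.33 ± 0.10 in KO cells (adjusted p = 0.0554), and *Rsbn1l* averaged -0.09 ± 0.04 (adjusted p = 0.249). *Gm49774*, opposite *Hmga1*, a chromatin protein gene, was at 5.98, 5.91, 6.06 and 7.07 CPM in Ctrl PBS and at 2.38, 3.88, 3.43 and 4.97 CPM with sENG(M):BMP9, without overlap (-0.78 ± 0.17, adjusted p = 0.00428). In KO cells its change of -0.39 ± 0.16 did not pass (adjusted p = 0.260), and *Hmga1* averaged -0.05 ± 0.02. *Gm16897* (-0.28 ± 0.09) lies opposite *Cd34* (-0.03 ± 0.02), a marker of endothelial and stem cells, and its call was kept only without isolation 3.

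Of the lncRNAs with no overlapping gene, *Dubr* was among the steadiest across isolations, with means of 33.3 to 36.8 CPM. It was at 42.2, 42.5, 37.9 and 42.2 CPM in Ctrl PBS and at 34.0, 27.3, 31.9 and 35.6 CPM with sENG(M):BMP9, and at 38.4, 37.0, 34.8 and 37.4 CPM in KO PBS and 32.8, 30.7, 28.5 and 31.1 CPM with pro:BMP9. No treated library of either genotype reached the lowest untreated one (-0.35 ± 0.06, adjusted p = 0.000409, and -0.26 ± 0.06, adjusted p = 0.0118), although the KO response passed in 1 of 4 fits that left out an isolation, the one without isolation 2. *Gm6093* fell in Ctrl cells (-0.57 ± 0.10, adjusted p = 0.000331) at levels that differed between isolations from 2.61 to 35.0 CPM. *4833403J16Rik* and *Gm20559* also passed in Ctrl cells, with -0.37 and -0.36, and *Gm15675* on average (-0.36 ± 0.11, adjusted p = 0.0434). The call of *Gm15675* was kept only without isolation 4 (-0.44) and was lost without isolation 1 (-0.23, adjusted p = 0.294), 2 (0.0789) or 3 (0.0890).

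Of the 5 lncRNAs with the highest mean levels, *Neat1* and *Norad* passed on average, and both calls depended on single isolations. *Neat1* averaged -0.29 ± 0.07 (adjusted p = 0.0128), with 475 ± 81 CPM in Ctrl PBS and 381 ± 121 CPM in Ctrl sENG(M):BMP9 (SD, n = 4), and the groups overlapped. The call of *Neat1* was lost without isolation 3 (adjusted p = 0.0739). *Norad* rose by 0.09 ± 0.03 on average (adjusted p = 0.0316), and passed without isolation 3 but not without isolation 1 (0.269), 2 (0.251) or 4 (0.0662). *Malat1* averaged -0.01 ± 0.11, and its 16 libraries spanned 689 to 1429 CPM, the highest in isolation 4 of Ctrl sENG(M):BMP9. *Gm42047* (-0.06 ± 0.04) and *AI506816* (-0.01 ± 0.03) did not pass. Of the 16 hosts of small nucleolar RNAs, whose spliced exons are by-products or short-lived RNAs, only *Snhg17* passed on average (-0.28 ± 0.06, adjusted p = 0.00275), while *Gas5* (-0.01), *Zfas1* (0.11) and *Snhg16* (-0.19) did not, and the median of the 16 was 0.01. None of the 5 imprinted lncRNAs, *H19* (0.12), *Peg13* (0.01), *Meg3* (0.06), *Rian* (0.01) and *Airn* (0.01), passed in any of the 5 comparisons or on average (edgeR). Of 15 listed lncRNAs of the Hox clusters, 11 were found among the deposited genes, and none of these reached 5 CPM.

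Of the 5 lncRNAs linked to p53, *Neat1* passed, and *Trp53cor1* (lincRNA-p21, -0.28 ± 0.10, adjusted p = 0.0873), *Pvt1* (0.17 ± 0.06, adjusted p = 0.0552), *Gm26532* (0.31 ± 0.10, adjusted p = 0.0517) and *Gas5* did not. Of 9 lncRNAs known from vascular or cardiac development, *Dnm3os* passed, and *Bvht*, a cardiac RNA, was just outside (0.24 ± 0.08, adjusted p = 0.0501).

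The positions of the expressed lncRNAs were set beside those of BMP target genes. Of a list of 79 BMP or endothelial target genes, 70 were tested, and 48 were higher and 4 lower on average. Within 100 kb of a listed gene lay 4 of the 199 lncRNA genes, and none of them passed (edgeR), their median response being 0.15 against -0.01 for the other 195. Of all 199 lncRNA genes 17.1% passed on average and of all tested genes 13.1%, and no difference was tested. The share of all tested genes that lie this near a listed gene was not counted. *Fendrr*, a lncRNA of the lateral mesoderm, starts divergently from *Foxf1* and lies 33061 bp from *Foxc2*, a transcription factor gene of vessels and lymphatics. It was at 7.08, 6.50, 4.74 and 4.23 CPM in Ctrl PBS and at 6.83, 7.23, 5.41 and 7.92 CPM with sENG(M):BMP9, and the groups overlapped. In KO cells it was at 6.92, 7.85, 4.15 and 4.01 CPM in PBS and at 8.14, 8.62, 5.32 and 6.28 CPM with pro:BMP9. Its average response was 0.31 ± 0.10 (adjusted p = 0.0592), beside 2.98 for *Foxc2* and 0.59 ± 0.04 (adjusted p = 3.55e-09) for *Foxf1*.

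*Gata6os*, which overlaps the start of *Gata6*, a transcription factor gene, on the opposite strand, averaged 0.20 ± 0.08 (adjusted p = 0.0945) beside 0.45 ± 0.05 for *Gata6*. *Trp53cor1*, 11797 bp from *Cdkn1a*, a cell cycle inhibitor gene, averaged -0.28 beside -0.02, and *Gm31834*, 27101 bp from *Bmp6*, averaged 0.09 ± 0.07 beside 0.19. Near the 101 genes of other biotypes that rose at least 2-fold on average, 7 lncRNA genes lay within 100 kb and 1 passed, *Gm28592* beside *Phlda1*. Of all 199 lncRNA genes 17.1% passed on average and of all tested genes 13.1%, and no difference was tested. *Gm12992*, 1171 bp from *Tmem200b* (1.66), averaged 0.15, and *Gm21781*, 3479 bp from *Zbtb2* (1.21), averaged 0.17. With genes that rose by at least 0.5 on the log2 scale as the targets, 17 lay within 100 kb and 5 passed, beside 34 of all 199 lncRNA genes (17.1%) and 13.1% of all tested genes, and this was not tested.

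Some lncRNAs below the threshold also lie beside BMP target genes. Of 21 tested autosomal lncRNA genes under 5 CPM within 100 kb of a listed gene, 4 passed on average, all higher. Over all 1121 tested autosomal lncRNA genes under 5 CPM, 49 passed (4.37%), 31 of them higher, against 13.1% of all tested genes, and no difference of shares was tested. The 4 are described because they passed and are no part of the 199. *Gm20544*, on the minus strand 441 bp from *Smad7*, the inhibitory SMAD gene, had 17, 20, 8 and 27 counts in Ctrl PBS and 137, 118, 121 and 107 counts with sENG(M):BMP9. In KO cells it had 22, 18, 14 and 24 counts in PBS and 88, 86, 84 and 73 counts with pro:BMP9, and no treated library overlapped an untreated one. Its log2 fold change was 2.69 ± 0.21 and 2.16 ± 0.21, beside 2.87 ± 0.09 and 2.85 ± 0.09 for *Smad7*. *Gm47118* overlaps *Edn1*, the endothelin-1 gene, on the opposite strand and rose by 2.33 ± 0.35 on average from at most 10 counts in any PBS library, beside 1.92 ± 0.07 for *Edn1*. *Gm47118* passed in Ctrl cells (3.24 ± 0.52, edgeR adjusted p = 0.000264) but not in KO cells (1.42 ± 0.46, adjusted p = 0.0942). With so few counts in PBS, *Gm47118* met the filter on low counts only through its treated libraries. Its rise and its place among the 4 are thus given as a description. *Gm38708*, 3210 bp from *Gata2*, rose by 1.03 ± 0.26 beside 0.88 ± 0.04, and *Gm36033*, 15955 bp from *Smad6*, rose by 0.74 ± 0.18 beside 3.33 ± 0.04. The average calls of the last 2 were lost without the isolation block (adjusted p = 0.255 and 0.252), that of *Gm38708* also without isolation 1 (0.140) and that of *Gm36033* without isolation 2 (0.103) or 3 (0.0691). By genotype, *Gm38708* passed in neither (edgeR adjusted p = 0.186 in Ctrl and 0.0750 in KO cells). *Gm36033* passed only in Ctrl cells (0.0451, against 0.249 in KO cells).

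The comparison of KO with Ctrl cells asked whether loss of *Eng* alters the lncRNAs before or after ligand. In PBS, 0 of 199 lncRNA genes passed in edgeR, against 0.0191% of all tested genes, with 10 lncRNA genes and 6.82% of all tested genes at an unadjusted p under 0.05 (DESeq2 also called 0). *Gm6093* had the smallest p (-0.39 ± 0.09, adjusted p = 0.373) and was lower in KO cells in 4 of 4 isolations: 6.56, 3.55, 28.0 and 35.0 CPM in Ctrl PBS against 5.14, 2.03, 21.2 and 28.5 CPM in KO PBS. *AW011738* (0.36 ± 0.13, adjusted p = 0.576) and *Dubr* (-0.16 ± 0.06, adjusted p = 0.602) followed.

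With ligand, 0 of 199 passed in edgeR against 0.255% of all tested genes, with 18 lncRNA genes and 9.27% of all tested genes at an unadjusted p under 0.05, and DESeq2 called 2, *Gm20559* and *AW011738*. *AW011738*, 2474 bp from *Isg15*, an interferon-stimulated gene, was at 5.64, 7.23, 7.44 and 10.2 CPM in Ctrl sENG(M):BMP9 and at 9.87, 10.4, 12.5 and 11.4 CPM in KO pro:BMP9. It was higher in KO cells in 4 of 4 isolations, with a small overlap between the groups (0.54 ± 0.14, adjusted p = 0.0867), and *Isg15* differed by 0.86 ± 0.19 in the same direction (adjusted p = 0.0604). *Gm20559*, 26129 bp from *Samd9l*, another interferon-inducible gene, differed by 0.31 ± 0.08 (adjusted p = 0.102), beside 0.34 ± 0.09 for *Samd9l* (adjusted p = 0.119). Both passed when isolation 4 was left out (adjusted p = 0.0114 for *AW011738* and 0.0171 for *Gm20559*), and neither did when isolation 1, 2 or 3 was (0.250 to 0.398). *Meg3*, an imprinted RNA, differed by 0.38 ± 0.11 (adjusted p = 0.131). *Dnm3os* was lower in KO cells in 4 of 4 isolations (-0.51 ± 0.15, adjusted p = 0.178), and it was higher in 1 and lower in 3 isolations in PBS (-0.42 ± 0.19, adjusted p = 0.711). Of the 5 fibroblast markers, *Dcn* was lower in KO cells both in PBS (-0.61, adjusted p = 0.0160) and with ligand (-0.61, adjusted p = 0.00835), and of the 6 mural markers *Pdgfrb* was lower with ligand (-0.29, adjusted p = 0.0289). Their part in these differences was not tested.

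The difference between the KO and the Ctrl ligand responses passed for 0 of 199 lncRNA genes and for 0.0% of all tested genes (edgeR; 8 lncRNA genes and 3.6% of all tested genes had an unadjusted p under 0.05, and DESeq2 called 0). The smallest p-values were those of *Gm29233* (-0.36 ± 0.13, unadjusted p = 0.0126), *Mir17hg* (0.57 ± 0.21, 0.0137) and *A630072M18Rik* (0.32 ± 0.14, 0.0291), all with adjusted p = 1.00. The median SE of the difference was 0.16, against 0.12 for a response in Ctrl cells. With no filter on low counts, some lncRNA genes passed in PBS, with ligand and for the difference, as given in the last section.

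**Figure D5:**
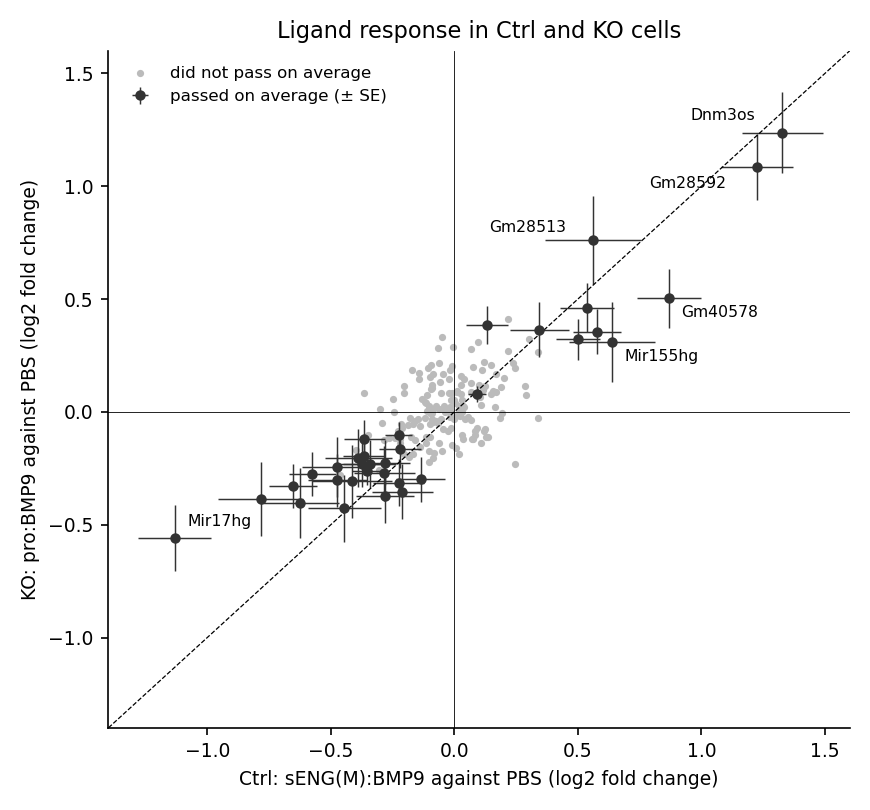
Ligand response of each of the 199 lncRNA genes in KO cells (y axis) against that in Ctrl cells (x axis), as log2 fold changes, with SE bars on the 34 that passed on average and a dashed line at equal responses. *Mir17hg*, at -1.13 and -0.56, and *Gm40578*, at 0.87 and 0.50, lie off the line toward a smaller KO response, and *Dnm3os* and *Gm28592* lie near it.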

How the data were processed

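Gene counts of 16 RNA sequencing libraries, deposited by the authors as raw read counts, were used. Per the labels, directional libraries were made from poly(A)-selected RNA, and the submitters' processing notes name HISAT2 2.0.5, featureCounts 1.5.0-p3 and DESeq2 1.26.0 with the build GRCm39. The annotation release and the strand setting of the counting are not given in the sources used here. Gene biotypes, coordinates and gene lengths were those of the table.

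Tests were run in R 4.3.3 with edgeR 4.0.16: filterByExpr (minimum count 10, minimum total 15), which left 15693 genes, TMM scaling, and the quasi-likelihood test over all 16 libraries with the isolation as a block. The block is the replicate number of the labels, which stands for 1 isolation. Deviations from the group means correlated at 0.757 on average between libraries of 1 isolation (lowest 0.670) and at -0.251 between isolations. The negative sign of the latter follows from subtracting the group means. p-values were adjusted by Benjamini-Hochberg over all tested genes, with a threshold of 0.05. Errors are SE for fold changes and SD for group levels. CPM are TMM-scaled except in the membership rule and in the mean levels over all 16 libraries, also those per kilobase. The average response is the mean of the Ctrl and KO contrasts. The step was tested on simulated counts. Alternatives were no block, DESeq2 1.42.0, RLE size factors, other filters, the libraries compared only, and leaving out each isolation.

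The 199 genes, the gene lists and the rules were chosen with earlier results of these data known. Named genes were the up to 8 per direction with the largest average response that passed and had the same sign in all 8 pairs, any that passed a genotype comparison or else the 3 smallest p in each, passing neighbours of listed BMP targets within 100 kb (there were none), up to 4 per list by largest and smallest response and highest level, the 5 highest levels, and 2 genes on either side of the threshold. All other named genes, such as *Mir155hg*, *Gm28513*, *Gm49774*, the remaining microRNA hosts, the neighbours that did not pass and the lncRNAs under 5 CPM, were chosen after their values were seen. Library totals of 14869115 to 17242117 counts gave every one of the 199 genes at least 10 counts per library.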

Additional observations from a re-analysis of the deposited data

Results flagged for a closer look

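In 12 of 168 groups of 4 libraries checked (7.14%), 1 library stood apart from the other 3 in the level of a named lncRNA, by a test that chance alone passes in about 1 in 20 groups. In isolation 4, *A330023F24Rik* was at 74.1 CPM in KO PBS (others 29.1 to 33.8) and at 53.3 CPM in KO pro:BMP9 (others 21.0 to 26.4), *Gm42047* at 492 CPM (342 to 363), *Trp53cor1* at 7.85 CPM (4.86 to 5.16) and *Gm49774* at 7.07 CPM (5.91 to 6.06) in Ctrl PBS, and *Gm16897* at 9.09 CPM (5.87 to 5.97) in KO pro:BMP9. In isolation 3, all in Ctrl PBS, *Gm47079* was at 14.1 CPM (15.9 to 16.1), *Dubr* at 37.9 CPM (42.2 to 42.5) and *Pvt1* at 20.3 CPM (14.02 to 14.9). In isolation 2, *Gm36279* was at 6.70 CPM in Ctrl PBS (4.77 to 5.10), and in Ctrl sENG(M):BMP9 *Norad* was at 186 CPM (195 to 196) and *Mir22hg* at 88.5 CPM (64.4 to 67.4).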

How the results depend on the processing

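The counts of lncRNA genes that passed were most sensitive to the isolation block and to the filter. Without the block, 4 passed in Ctrl cells (21 with it), 1 in KO cells (10) and 5 on average (34). With no filter on low counts, 33 passed in Ctrl cells, 19 in KO cells, 2 in KO against Ctrl in PBS, 8 with ligand and 1 for the difference of responses. With the compared libraries only, 18 passed in KO cells. DESeq2 called 17 in Ctrl cells, 8 in KO cells, 2 in KO against Ctrl with ligand and 0 in the other genotype comparisons. Leaving out 1 isolation gave 15 to 23 in Ctrl cells, 3 to 6 in KO cells, 21 to 30 on average, 0 to 2 in KO against Ctrl with ligand and 0 elsewhere. RLE size factors and at least 10 counts in every library left the counts within 1.5 times. The alternatives for the average response were added after seeing the data. The cause of these changes was not tested. With targets induced by at least 0.5 on the log2 scale, 17 lncRNA genes lay near one and 5 of them passed (7 and 1 at 2-fold), while distances of 50 and 250 kb left these counts within 1.5 times. Among the values of named lncRNAs under alternatives, 616 kept direction and side of the threshold, 92 were no longer past it, 26 came past it and 10 turned in sign, all of genes near 0: *Malat1* without the block (0.00802) and without an isolation (-0.174 to 0.0564), *AI506816* without an isolation (-0.0205 to 0.00730) and *Airn* without the block (-0.00484) and without an isolation (-0.0344 to 0.113).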
